A study of Mus musculus with 4 samples.

Results

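Of the 28535 PPARγ peaks called in library 2, 4870 shared no base pair with any of the 83787 peaks called in library 1. These library 2-only peaks, 17.1% of the library 2 list (95% Wilson interval 16.6 to 17.5%, counting error only), are described here. They were chosen by position alone, as intervals of the library 2 list that overlap no interval of the library 1 list by even 1 bp, and the other 23665 library 2 peaks are called shared. Both libraries were PPARγ HT-ChIPmentation of alveolar macrophages (AMs) from adult wild-type C57BL/6J mice, obtained by bronchoalveolar lavage and sorted, so there is no contrast of genotype or treatment, and each list came from 1 library. An input library accompanies each ChIP library. Nothing in the sources used here says whether the libraries came from separate mice or pools, and all p-values below run over peaks, so they measure neither the spread between animals nor that between libraries. The deposited lists hold no read counts, so the depth behind a peak is not analysed here, and a peak missing from the library 1 list is a peak that was not called there. The sequencing quality table of the study lists more aligned read pairs for the first ChIP library than for the second. The antibody is an identical catalogue item in both libraries, and peak lists carry no expression value with which the cell type could be checked.

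PPARγ is a nuclear receptor that binds DNA with RXR as a partner, most often at a pair of AGGTCA core sites separated by 1 base, called a DR1. In AMs it is needed for the mature state and for the handling of surfactant lipid, and it works on chromatin opened by macrophage factors such as PU.1, C/EBP and AP-1 proteins. Binding of such factors in macrophages is mostly found in enhancers, away from promoters, and short tandem repeats are a class of sequence where peak calls and read placement need particular care.

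The handful of strongest library 2-only peaks were largely made of short repeated units. The summit with 50 bp on either side of the 6 peaks with the highest fold enrichment over input is shown first, since these sequences differ in kind from the binding motifs described later (mm10, plus strand, RefSeq GRCm38 sequence). The genes named are those with the nearest protein-coding transcription start site (TSS), and capitals mark any of the 10 hexamers described after them.
Enpp6, chr8:46926564-46926664: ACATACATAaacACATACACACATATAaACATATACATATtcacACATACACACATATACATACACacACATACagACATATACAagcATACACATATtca
Ptafr, chr4:132566300-132566400: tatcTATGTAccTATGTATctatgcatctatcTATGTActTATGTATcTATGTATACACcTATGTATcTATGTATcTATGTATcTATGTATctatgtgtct
Syk, chr13:52597952-52598052: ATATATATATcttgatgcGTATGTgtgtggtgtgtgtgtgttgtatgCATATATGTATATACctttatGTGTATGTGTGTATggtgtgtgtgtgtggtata
Wbp2, chr11:116092711-116092811: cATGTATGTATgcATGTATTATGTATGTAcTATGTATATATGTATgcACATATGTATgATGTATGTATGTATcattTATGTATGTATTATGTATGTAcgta
Zfp36l2, chr17:84087665-84087765: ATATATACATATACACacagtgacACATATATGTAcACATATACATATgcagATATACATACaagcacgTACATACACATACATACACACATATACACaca
Zfp36l2, chr17:84109428-84109528: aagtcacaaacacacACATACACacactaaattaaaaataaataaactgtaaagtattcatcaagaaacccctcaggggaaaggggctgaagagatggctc

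The first 5 of these windows consist largely of repeated short runs of A, T, C and G built from units such as TATG and ACATAC, and the last holds a single short run. None of the 6 windows contains a match to the DR1, AGGTCA, PU.1, ETS, CEBP, AP-1 or RUNX patterns searched. To count such sequence, the number of different tetramers was taken in the window reaching 100 bp to either side of each summit, and a window with at most 110 was called low in complexity. This measure and its limit were chosen after the sequences had been seen, so it is given without a test.

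By that measure 1115 of the 4870 library 2-only peaks had a low-complexity summit, or 22.9% (21.7 to 24.1%), against 11.3% (10.9 to 11.7%) of shared library 2 peaks and 15.2% (14.9 to 15.5%) of library 1-only peaks. The windows 1 kb to the left of the same library 2-only summits gave 16% (15 to 17.1%), and those beside shared summits 15.1% (14.7 to 15.6%). Shared summits were thus below their surroundings in this respect and library 2-only summits above theirs. A limit of 100 tetramers kept that order, at 10.2% for library 2-only and 3.45% for shared summits, as did a limit of 120, at 52.3% and 37.1%. Among library 2-only peaks the share was 21.1% (19.1 to 23.3%) in the lowest decile of fold enrichment and 32.1% (24.7 to 40.5%) in decile 8, and 11 of the 29 members in decile 9 and all 3 in decile 10 had such a summit. Shared peaks went the other way, from 13.2% (12 to 14.5%) in the lowest to 7.63% (6.66 to 8.71%) in the highest decile. Of the 20 strongest library 2-only peaks 11 were low in complexity and 14 had a soft-masked (repeat-annotated) summit base, and of the 100 strongest 36 and 42.

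**Figure D1:**
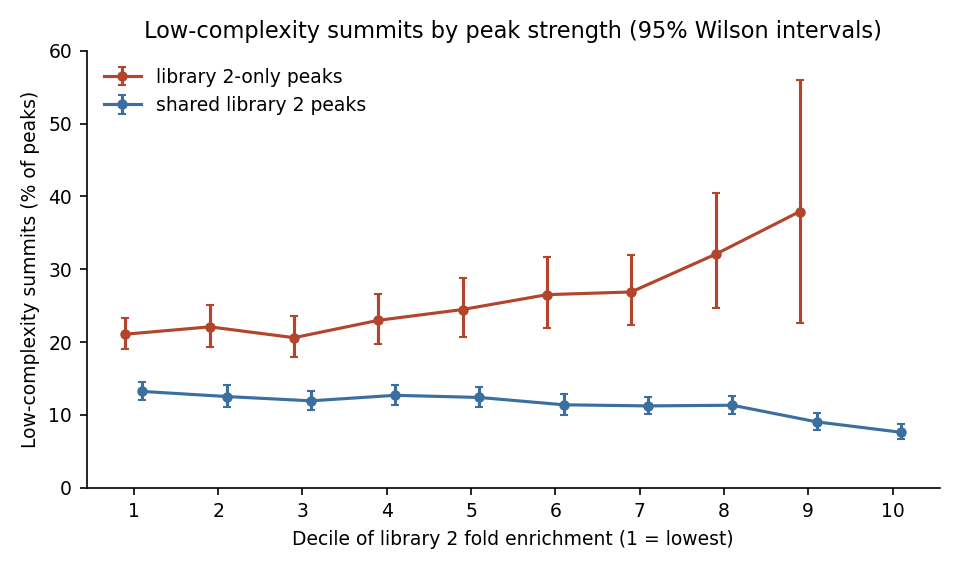
Share of peaks with a low-complexity summit (at most 110 different tetramers within 100 bp of the summit, y axis, percent) by decile of library 2 fold enrichment (x axis), for library 2-only and shared library 2 peaks, with 95% Wilson intervals. Library 2-only peaks lie above shared peaks in deciles 1 to 9, at 21.1% against 13.2% in the lowest, and decile 10 of the library 2-only peaks is not drawn because it holds 3 peaks.

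Among hexamers present at 5% or more of library 2-only summits, counted on both strands, the 10 with the largest ratio to the left flank were TATATA at a ratio of 2.69, ATATAT at a ratio of 2.51, ATATAC at a ratio of 2.24, CATATA at a ratio of 2.07, TATACA at a ratio of 1.94, ATACAT at a ratio of 1.86, TACATA at a ratio of 1.85, ACATAT at a ratio of 1.84, ATACAC at a ratio of 1.84 and ACATAC at a ratio of 1.83. TATATA stood at 940 library 2-only summits, or 19.3% (18.2 to 20.4%), at 7.19% of their flanks and at 7.45% of shared summits. TACATA stood at 24.3% (23.1 to 25.6%) of library 2-only summits, at 13.1% of their flanks and at 12.6% of shared summits. At least 1 of the 10 was found at 61.2% (59.8 to 62.6%) of library 2-only summits, 43.7% of their flanks, 41.1% of shared summits and 51.6% of library 1-only summits. These hexamers were ranked on the same peaks, so the ratios are descriptions.

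Library 2-only peaks were narrow and weak within their list. Width is tied to the rule, since a narrow interval has less chance to overlap another. Width, fold enrichment and q are therefore given as descriptions, without a test. The authors' fold enrichment ranged from 2.45 to 9.34 with a median of 4.52, against a median of 5.35 and a maximum of 29.4 for shared library 2 peaks. The median width was 177 bp against 327 bp, and 1292 library 2-only peaks (26.5%) had the shortest width in the list, 135 bp, against 6.96% of shared peaks. The widest, of 1170 bp, lay 63.3 kb downstream of the TSS of Ugcg, which encodes glucosylceramide synthase. Of the library 2-only peaks 82.6% had a q under 0.001, against 93.4% of shared peaks. The number that did not overlap library 1 was 1451 of 4345 peaks in the lowest decile of fold enrichment (33.4%, 32 to 34.8%), 433 of 2521 in decile 5 (17.2%) and 3 of 2586 in the highest (0.116%). Per chromosome, the share of library 2 peaks that were library 2-only ran from 13.9% on chromosome 7 to 21.4% on chromosome X.

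Most library 2-only peaks were close to a library 1 peak without touching it. The median gap was 463 bp. Of the 4870, 924 (19.0%, 17.9 to 20.1%) lay within 100 bp of a library 1 peak, 3264 (67.0%, 65.7 to 68.3%) within 1 kb and 4444 (91.3%, 90.4 to 92.0%) within 10 kb. The chromosomes themselves had 1.67%, 4.70% and 19.2% of their length within these distances of a library 1 peak. Those lengths include the library 1 peaks themselves, where no library 2-only peak can lie, so the length open to members was smaller. The nearest library 1 peak was itself shared for 28.8% of library 2-only peaks, close to the 26.9% of all library 1 peaks that were shared. Just inside the boundary, 12 library 2-only peaks touched a library 1 peak with no base in between, and just outside it 14 shared peaks overlapped by 1 bp. The 143 members with a gap of at most 10 bp and the 159 shared peaks with an overlap of at most 10 bp both had a median fold enrichment of 4.52, with median widths of 183 and 176 bp.

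**Figure D2:**
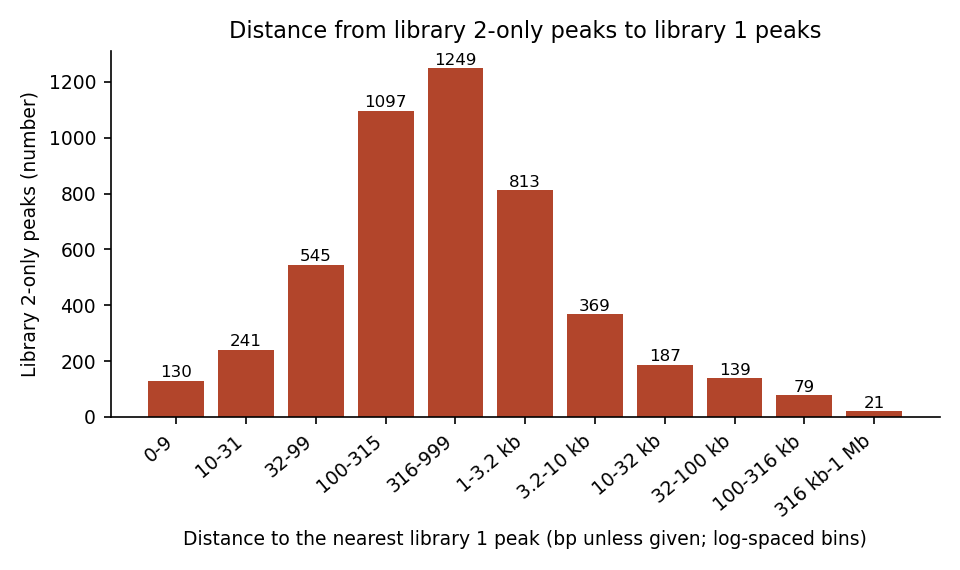
Number of library 2-only peaks (y axis) by distance to the nearest library 1 peak (x axis, log-spaced bins from 0 to 1 Mb). The tallest bar, 1249 peaks, is the last one under 1 kb, and 426 peaks lie beyond 10 kb.

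At the far end, 426 library 2-only peaks lay beyond 10 kb of any library 1 peak and 100 beyond 100 kb. The most distant, chr11:7819221-7819361, was 755 kb away, 605 kb upstream of Igfbp3, with a fold enrichment of 5.07. The genes with the most of these 426 peaks were Cdh8, with 4, and Adcyap1, G6pd2, Hpgd, Itga1, Lrrc4c, Ppp1r3a, Slitrk5 and Smim18, with 3 each. In this group the median fold enrichment was 4.24, the median width 146 bp, and 40.8% (36.3 to 45.6%) of summits were low in complexity, against 14.5% (12.4 to 16.9%) within 100 bp of a library 1 peak. Stronger peaks among them existed. The peak chr2:151740423-151740749, 0.767 kb into Psmf1 (a proteasome inhibitor), had a fold enrichment of 6.75 at 74.4 kb from any library 1 peak, and chr16:46010970-46011284 in the promoter of Plcxd2 had 6.19 at 250 kb. These genes and the distance classes were picked after their values were seen.

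Library 2-only peaks were seldom at promoters. Promoter windows, set around each curated RefSeq TSS with 1 kb before and 100 bp after it, held 287 summits, or 5.89% (5.27 to 6.59%), against 18% (17.6 to 18.5%) of shared summits. Within deciles of fold enrichment the common odds ratio was 0.30 (95% interval 0.27 to 0.34, Cochran-Mantel-Haenszel chi-square test, p = 3.78e-82). Introns held 52.3% of library 2-only summits and intergenic sequence 36.8%, against 46.6% and 30.1% of shared summits, and coding exons held 0.986% and 0.955%. Summits more than 3 kb from any TSS made up 72.7% (71.4 to 73.9%) of library 2-only and 61.5% (60.9 to 62.1%) of shared peaks, with an odds ratio of 1.64 (1.53 to 1.76, chi-square p = 1.10e-42). Library 1-only peaks lay between both groups, with 12% in promoters and 68.7% distal. Because members are defined as places where library 1 has no peak, this contrast also reflects where library 1 has peaks.

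The summit base was soft-masked at 1255 library 2-only peaks, or 25.8% (24.6 to 27.0%), against 15.1% (14.6 to 15.6%) of shared and 18.2% of library 1-only peaks. The odds ratio against shared peaks was 1.76 (1.63 to 1.90, Cochran-Mantel-Haenszel chi-square test, p = 1.13e-47). The left flanks gave 25.7% beside library 2-only and 23.8% beside shared summits, so it was the shared summits that departed from their surroundings. The median GC content at the summit was 39.8% for library 2-only and 45.3% for shared peaks, and the median difference within fold deciles was −5.47 percentage points. Library 2-only summits had a lower GC content than their own flank in 3269 of 4870 peaks (67.1%), and shared summits in 51.5%.

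These features changed along the distance to library 1. The classes are set by that distance, so the promoter and distal shares also reflect where library 1 has peaks. From within 100 bp to beyond 10 kb, the share in promoters went from 9.20% (7.50 to 11.2%) to 3.05% (1.79 to 5.15%), the share of distal summits from 65.3% (62.1 to 68.3%) to 92.0% (89.1 to 94.2%), and the median GC content from 42.8% to 33.3%. Soft-masked summits were 22.4% (19.8 to 25.2%) of the nearest and 30.3% (26.1 to 34.8%) of the farthest class. Taking peaks within 1 kb of a library 1 peak as shared (the 1 kb rule) left 1606 members, of which 2.86% were in promoters (odds ratio 0.16, 0.12 to 0.22) and 83.6% were distal (odds ratio 3.02, 2.63 to 3.46).

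**Figure D3:**
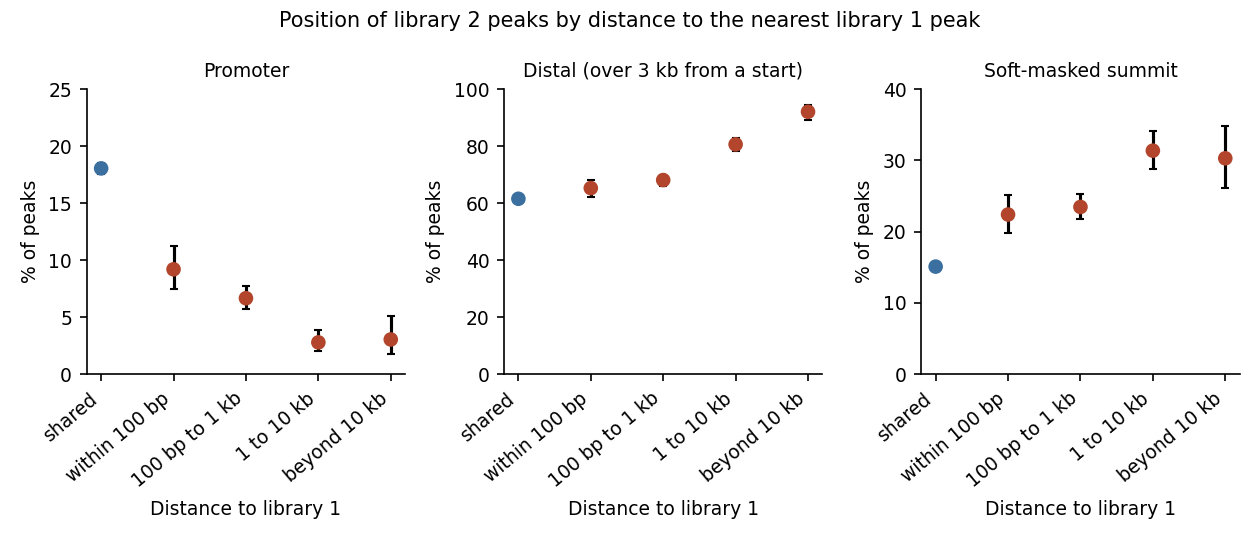
Share of peaks (y axes, percent) in promoters, more than 3 kb from any TSS, and with a soft-masked summit, for shared library 2 peaks and for library 2-only peaks in 4 classes of distance to the nearest library 1 peak (x axes), with 95% Wilson intervals. Promoter shares fall from 18% of shared peaks to 3.05% beyond 10 kb, and distal shares rise from 61.5% to 92.0%. Both also reflect where library 1 has peaks.

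Motifs were then counted within 100 bp of summits and in an equal window 1 kb to the left, with 20 patterns adjusted together. The PPARγ:RXR element was the one related to the antibody that passed at library 2-only peaks. DR1, spelled AGGTCANAGGTCA with at most 1 mismatch, was found at 53 summits (1.09%, 0.833 to 1.42%) and in 20 flanks (0.411%), a ratio of 2.65 (exact McNemar test, adjusted p = 9.44e-04). At shared peaks the same counts were 208 and 114, a ratio of 1.82. Against shared peaks within fold deciles, the odds ratio for DR1 was 1.64 (1.18 to 2.29, chi-square test, adjusted p = 0.00451), a call that 6 alternatives lost. By the same chi-square test the odds ratio was 1.24 without the deciles (adjusted p = 0.191), 1.6 at a fold enrichment of at least 5 (adjusted p = 0.137), 1.29 when a peak counted as shared only if its summit lay in a library 1 peak (the summit rule, adjusted p = 0.112) and 1.56 within 50 bp of the summit (adjusted p = 0.0691). It was 1.06 over peaks with none of the 10 hexamers at the summit or flank (chi-square test, adjusted p = 0.897) and 1.02 with 2 mismatches allowed (adjusted p = 0.827). The ratio to the flank was 3 at a fold enrichment of at least 5, where it did not pass (exact McNemar test, adjusted p = 0.25).

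Spelled without a mismatch, DR1 stood at 15 library 2-only summits and in 1 flank, a ratio of 15 (exact McNemar test, adjusted p = 0.00259). It stood at 17 of the 23665 shared summits, so the shares were 0.308% and 0.0718%. The odds ratio was 4.79 (2.2 to 10.4, chi-square test, adjusted p = 1.79e-05). These are few peaks. The other alternatives, such as leaving out the deciles or the 10 hexamers, were not run for this spelling. Of the 15 peaks, 9 had the element centred within 50 bp of the summit, 7 had a soft-masked summit, 6 lay in introns and 9 were intergenic. The 7 that lay over 1 kb from any library 1 peak are a set picked after its values were seen. Among them the summits near Bphl, Sgk1, Uspl1 and Arhgap30 were soft-masked. The element was centred more than 50 bp from the summit near Arhgap30 (62 bp), Ch25h (59 bp) and Sgk1 (88 bp). These 7 are printed, each read along the motif with 10 bases on either side and the element in capitals.
H2-Ob, chr17:34235040-34235072, plus strand: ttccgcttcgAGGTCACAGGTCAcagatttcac
Bphl, chr13:34044172-34044204, plus strand: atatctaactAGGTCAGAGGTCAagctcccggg
Ssr1, chr13:37983942-37983974, minus strand: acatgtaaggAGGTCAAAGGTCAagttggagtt
Sgk1, chr10:21864574-21864606, minus strand: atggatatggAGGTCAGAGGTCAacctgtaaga
Uspl1, chr5:149196746-149196778, plus strand: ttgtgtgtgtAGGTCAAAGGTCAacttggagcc
Arhgap30, chr1:171398933-171398965, plus strand: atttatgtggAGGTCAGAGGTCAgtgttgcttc
Ch25h, chr19:34458246-34458278, plus strand: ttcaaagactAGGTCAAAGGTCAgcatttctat

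The peak nearest H2-Ob, which encodes a chain of the class II-like molecule DO, had its DR1 centred 1 bp from the summit, a fold enrichment of 5.63 and a gap of 13.8 kb to library 1, and lay 3.85 kb upstream of the TSS. No shared peak was nearest to H2-Ob. The peak in the neighbourhood of Ch25h, the cholesterol 25-hydroxylase, lay 16.9 kb downstream with a fold enrichment of 3.96 and a gap of 5.76 kb, and 9 shared peaks were nearest to that gene. Sgk1, a serum- and glucocorticoid-regulated kinase, had its element 88 bp from the summit of a peak 17.5 kb upstream. Of the 15 peaks, 11 had a nearest gene that also had a shared peak. The strongest of the 15, chr6:134918074-134918227, lay 2.28 kb upstream of Cdkn1b, the cell cycle inhibitor p27, with a fold enrichment of 6.75 and a gap of 581 bp, and its DR1 was centred 73 bp from the summit.

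With 1 mismatch allowed, the 5 strongest DR1 members were nearest to Spp1, Cdkn1b, Gab2, Qrfpr and Tmcc1. The first 3 peaks whose match falls within 50 bp of the summit, outside 1 chromosome from which no sequence is given, are printed with the match in capitals.
Gab2, chr7:97092786-97092886: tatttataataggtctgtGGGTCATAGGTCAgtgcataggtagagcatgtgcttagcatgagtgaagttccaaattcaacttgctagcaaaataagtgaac
Qrfpr, chr3:36284321-36284421: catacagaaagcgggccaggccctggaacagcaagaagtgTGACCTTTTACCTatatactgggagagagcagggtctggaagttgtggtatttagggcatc
Atp6v1g3, chr1:138336262-138336362: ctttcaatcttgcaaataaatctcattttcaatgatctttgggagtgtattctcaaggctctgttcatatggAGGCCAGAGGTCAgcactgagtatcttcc

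The macrophage motifs that stood out at shared summits did not pass the test against left flanks over all library 2-only peaks. These flanks include called peaks of either library, at 31.6% of library 2-only and 51.2% of shared summits. For PU.1 the result changed with flanks outside every peak, as given in the next paragraph. PU.1 (GAGGAAGT), the site of the macrophage lineage factor, was found at 83 library 2-only summits (1.70%, 1.38 to 2.11%) and 89 flanks (1.83%), a ratio of 0.933 (exact McNemar test, adjusted p = 0.873), while at shared peaks it stood at 5.57% of summits and 1.64% of flanks, a ratio of 3.39. CEBP (TTGCNNAA) stood at 9.49% of library 2-only summits and 9.03% of flanks (ratio 1.05, exact McNemar test, adjusted p = 0.627), and AP-1 (TGANTCA) at 6.41% and 5.95% (1.08, adjusted p = 0.627), against ratios of 1.64 and 1.62 at shared peaks. The difference between these ratios was not tested, and the odds ratios that follow compare library 2-only with shared summits, without flanks. The chi-square test of summit shares alone, within fold deciles, gave an odds ratio of 0.37 (0.29 to 0.47, adjusted p = 4.03e-18) for PU.1. For CEBP the odds ratio was 0.74 (0.67 to 0.83, chi-square test, adjusted p = 1.88e-07). For AP-1 the odds ratio was 0.71 (0.62 to 0.81, chi-square test, adjusted p = 3.95e-07). RUNX (TGTGGTT) was at 5.65% of library 2-only summits against 7% of shared ones (odds ratio 0.84, chi-square test, adjusted p = 0.0195). The RUNX call was lost in the chi-square test at a fold enrichment of at least 5 (0.904, adjusted p = 0.462), under the 1 kb rule (0.807, adjusted p = 0.0851) and without the 10 hexamers (0.878, adjusted p = 0.463), and the AP-1 call under the 1 kb rule (0.846, adjusted p = 0.125). The single AGGTCA core site was at 11.6% of library 2-only summits and 11.8% of flanks, and at 14.9% of shared summits (odds ratio 0.81, 0.73 to 0.90, chi-square test, adjusted p = 8.28e-05).

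The left flank of 1537 library 2-only summits (31.6%) overlapped a peak of either library. Over the 3333 members with a flank outside every peak, the PU.1 ratio was 1.84 and passed (exact McNemar test, adjusted p = 0.0122), so the PU.1 ratio depends on which flanks are counted. The matching ratio for shared peaks is not given here. Beyond 10 kb from library 1, PU.1 was at 10 of 426 summits (2.35%) and 3 flanks, and DR1 at 7 summits and 0 flanks, where a count of 0 in 426 windows has a Wilson upper bound of 0.894%. From 100 bp to 1 kb, PU.1 was at 28 of 2340 summits (1.20%) and 55 flanks (2.35%).

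The 5 strongest members with a PU.1 match were nearest to Gcnt1, Nckap1, Arf6, Mmp8 and Plcxd2. The first 3 with the match within 50 bp of the summit are printed with it in capitals.
Plcxd2, chr16:46011048-46011148: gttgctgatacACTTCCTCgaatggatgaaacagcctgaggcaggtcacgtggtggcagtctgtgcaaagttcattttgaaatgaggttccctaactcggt
Nabp1, chr1:51539735-51539835: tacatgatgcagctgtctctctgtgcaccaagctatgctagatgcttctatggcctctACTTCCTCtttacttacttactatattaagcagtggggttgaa
Tnfrsf1b, chr4:145277975-145278075: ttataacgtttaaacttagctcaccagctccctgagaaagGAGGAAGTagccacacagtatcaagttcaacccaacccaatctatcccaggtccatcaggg

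A pair of A- and T-rich patterns were more frequent at library 2-only summits. AGATAA, the GATA core, was at 792 summits (16.3%, 15.3 to 17.3%) and 581 flanks (11.9%), a ratio of 1.36 (exact McNemar test, adjusted p = 2.11e-08), and TAATTA, a homeobox core, at 407 (8.36%) and 273 (5.61%), a ratio of 1.49 (adjusted p = 1.05e-06). Shared summits held them at 10.5% and 5.67%, with odds ratios by the chi-square test of 1.54 (1.41 to 1.69, adjusted p = 2.33e-19) and 1.43 (1.26 to 1.61, adjusted p = 5.13e-08). At least 1 of the 10 hexamers stood at 65.4% (62.0 to 68.6%) of members with an AGATAA match. For TAATTA the share was 73.7% (69.2 to 77.8%), and over all members it was 61.2% (59.8 to 62.6%). GC content was not compared between members with and without these matches, and the part of base composition in these counts was not tested. The G- and C-rich KLF/SP (GGGCGGGG) and NRF1 (GCGCNNGCGC) patterns were less frequent at summits than in flanks, at ratios of 0.517 (exact McNemar test, adjusted p = 0.00108) and 0.370 (adjusted p = 0.0305). With the right flank the ratios were 0.667 and 0.588 and did not pass (exact McNemar test, adjusted p = 0.128 and 0.412). Both calls were also lost at a q under 0.001, at a fold enrichment of at least 5, under the 1 kb rule, with flanks outside every peak and without the 10 hexamers, and that for NRF1 also under the summit rule and without soft-masked summits. Over the 1109 members with none of the 10 hexamers at the summit or flank, 0 of the 20 patterns passed the exact McNemar test against flanks, and 2, STAT (TTCCNGGAA) and GATA, had an unadjusted p under 0.05. The ratios over these fewer peaks were 4.5 for DR1 (adjusted p = 0.436), 1.28 for GATA (adjusted p = 0.359) and 1.38 for the homeobox core (adjusted p = 0.507), by the exact McNemar test.

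**Figure D4:**
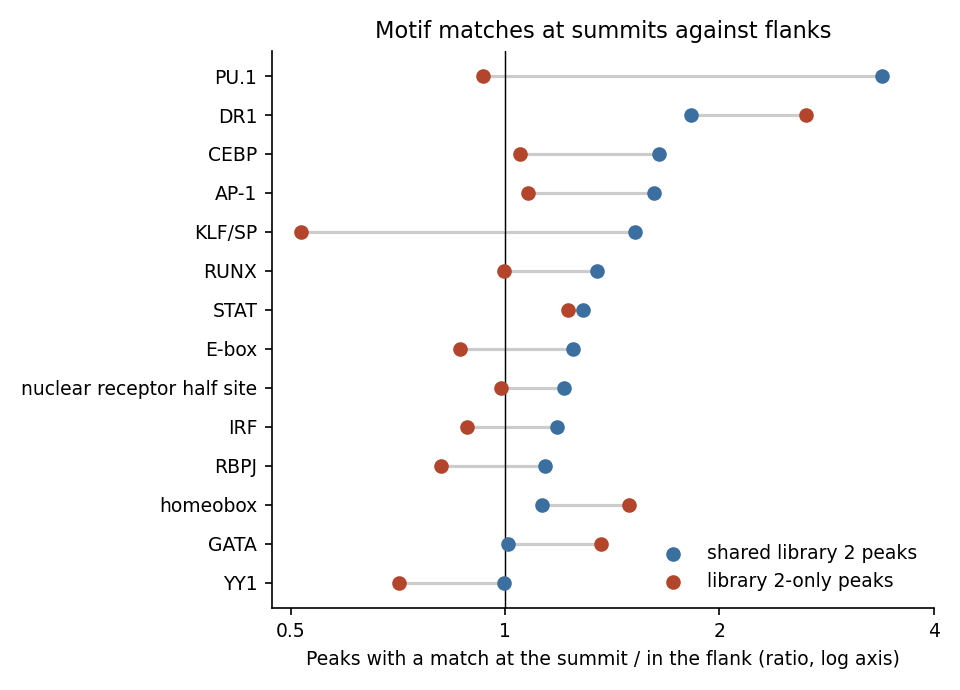
Ratio of peaks with a motif match at the summit to peaks with a match in the left flank (x axis, log scale) for 14 patterns with at least 60 library 2-only matches in all, in library 2-only and in shared library 2 peaks. PU.1 stands at 0.933 against 3.39, CEBP at 1.05 against 1.64 and DR1 at 2.65 against 1.82. Left flanks that overlap a called peak are included, and without them PU.1 at library 2-only peaks stands at 1.84.

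Most library 2-only peaks fell among genes that shared peaks already marked. By nearest protein-coding TSS they were assigned to 2942 of 20923 genes (14.1%), of which 2277 (77.4%) also had a shared library 2 peak, 568 (19.3%) had a library 1 peak but no shared one, and 97 (3.30%) had no other peak of either library. Shared library 2 peaks were assigned to 6633 genes (31.7%). In all 4104 of the 4870 members (84.3%) were at genes with a shared peak, and 102 (2.09%) at genes with no other peak. Assignment was by distance alone, with 45.0% of members within 10 kb and 77.8% within 50 kb of the assigned TSS. Some peaks named below, among them those for Zfp36l2, Xbp1 and Irf2, had a nearer TSS of another annotated gene.

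The 20 strongest library 2-only peaks all had a nearest gene with a shared peak. Of the 20, 16 lay within 1 kb of a library 1 peak, 11 were in introns, 8 were intergenic and none was in a promoter. The strongest, chr8:46926485-46926887 with a fold enrichment of 9.34, lay 60.3 kb upstream of Enpp6 and 1.48 kb from library 1. The second, chr4:132566222-132566581 at 8.98, lay in the first intron of Ptafr, the receptor for platelet-activating factor, 372 bp from a library 1 peak whose own fold enrichment was 10.1. The third, chr13:52597836-52598445 at 8.70, lay in the first intron of Syk, a kinase downstream of phagocytic receptors. Next came Wbp2 and a pair of peaks assigned to Zfp36l2, an mRNA decay factor, all at 8.15. The Zfp36l2 pair lay 100 and 78.5 kb downstream of its TSS. Tmem216 and Tusc1 followed at 7.87.

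Pparg itself was among them. The peak chr6:115470222-115470387, 166 bp wide, lay in an intron 48.2 kb downstream of the nearest Pparg TSS, with a fold enrichment of 7.59 and a gap of 583 bp to library 1, and its summit was not soft-masked. Pparg had 4 library 2-only peaks beside 16 shared ones and 74 in library 1. At the same fold enrichment of 7.59 were peaks near Ado, in a 3′ UTR, Maff, a small Maf factor (1.16 kb upstream of the TSS), Gcnt1, Nckap1, Sf3a3, Tnfrsf1b, a TNF receptor, and Spp1, osteopontin (6.38 kb upstream). Xbp1, Lcp2, Cdc27 and Umps completed the 20 at 7.31. Among these peaks the summits near Maff, Gcnt1, Sf3a3, Spp1, Xbp1 and Lcp2 were soft-masked.

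The genes with the most library 2-only peaks were large loci with many peaks of both libraries. Mbnl1, an RNA-binding protein gene, had 15 over 226 kb, beside 27 shared peaks and 82 in library 1. Ado had 14, Cd44, a hyaluronan receptor, 13, and Tcf7l2, a Wnt pathway factor, 12, beside 43, 66 and 62 shared peaks. Prdm1 (the repressor BLIMP-1), Prkch and Ptprc (CD45) had 11 each, and 7 genes had 10, of which Atp6v1g3, Cd47 and Ctsc come first by name. At Mbnl1 13 of the 15 lay within 1 kb of a library 1 peak, and at Cd44 12 of 13. Most genes with a member, 1978 of 2942 (67.2%), had just 1.

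The AM signature list had a member at the largest share of its genes. Of 40 AM genes, 31 (77.5%, 62.5 to 87.7%) had a library 2-only peak, against the 14.1% of all protein-coding genes, but all 40 also had a shared peak. Among all 6633 genes with a shared peak, 34.3% had a library 2-only peak as well. The strongest were at Spp1 (7.59), Cd2 (6.75, 18 bp from library 1), Mmp8 (6.47, 14.9 kb upstream) and Fabp1 (5.91, 8.06 kb downstream). The list counts have no test, and genes with long surroundings or many peaks have more chance of a nearby peak, a point that the count does not remove. Of 46 macrophage transcription factors 27 (58.7%) had a member, led by Maff, Pparg, Runx1 (7.31, in an intron 45.6 kb downstream, with 7 members and 55 shared peaks) and Irf2 (6.75).

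Lipid genes had a member less often than the AM signature list, and a shared peak less often too. Of 50 PPAR target and lipid genes, 16 (32%, 20.8 to 45.8%) had a library 2-only peak and 37 a shared one. All 16 were among the 37. Beside this and the next lists stand the 14.1% over all protein-coding genes and the 34.3% over genes with a shared peak. No difference between lists was tested. The strongest were at Cd36, the fatty acid and oxidised lipid receptor (chr5:17848147-17848329, first intron, 1.54 kb downstream, 5.91), Eci2, an enzyme of unsaturated fatty acid oxidation (5.63), Plin2, a lipid droplet protein (5.63, 6.47 kb upstream), and Hadha (5.35). Of 30 cholesterol genes 15 had a member, with Ch25h (6.75, 23.0 kb upstream), Nceh1, Npc2 and Pltp first. Of 32 lysosome and phagocytosis genes 13 (40.6%) had one, led by Ctss and Fcgr2b, and of 30 niche signal receptors and mediators 10 (33.3%), led by Notch2 (5.77) and Csf2rb, the shared chain of the GM-CSF receptor (5.70, 4.09 kb from library 1).

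Lists for other cells were closer to the share over all genes. Other macrophages and monocytes had 7 of 30 genes with a member (23.3%), lung epithelium 5 of 22 (22.7%), adipocytes 3 of 16 (18.8%), neurons 4 of 22 (18.2%), proliferation 5 of 30 (16.7%), lymphocytes 3 of 22 (13.6%), granulocytes 2 of 19 (10.5%), endothelium 1 of 16 (6.25%) and liver 1 of 22 (4.55%). For neurons and lung epithelium more genes had a member than a shared peak, 4 against 1 and 5 against 4. Members assigned to the neuronal genes Cntnap2, Scn2a and Dlg2 had fold enrichments of 4.24, 3.96 and 3.40. They lay 238, 3.65 and 461 kb upstream of the TSS, with gaps of 389, 13.5 and 70.3 kb to library 1.

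**Figure D5:**
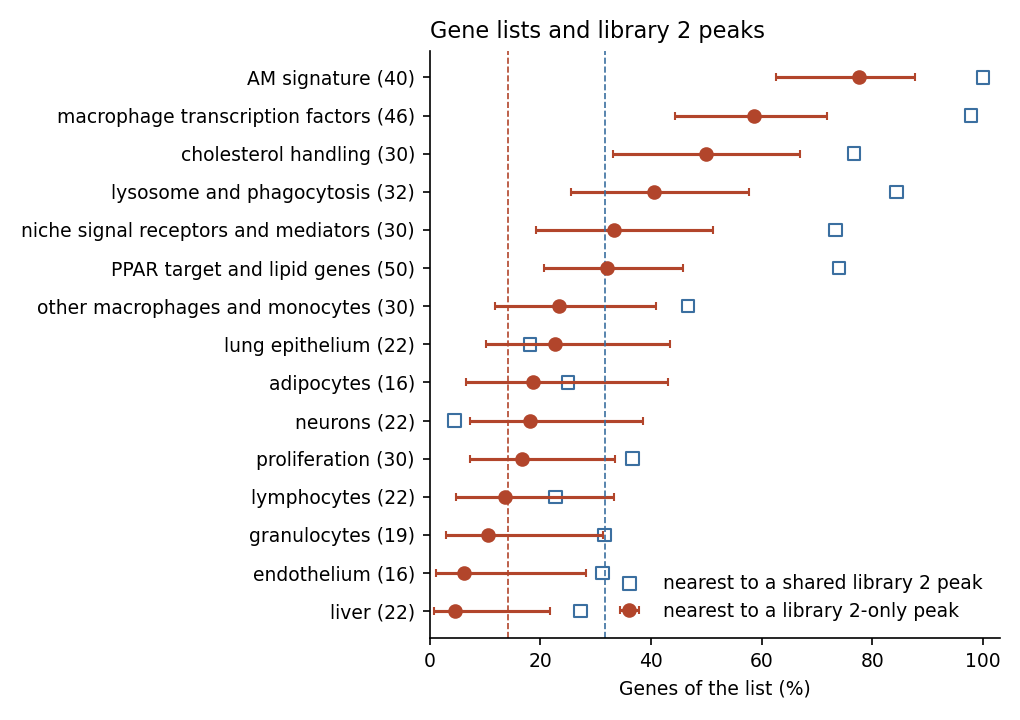
Share of the genes of each list (x axis, percent; number of genes in brackets) that are nearest to a library 2-only peak, with 95% Wilson intervals, and that are nearest to a shared library 2 peak (squares). Dashed lines give the shares over all protein-coding genes, 14.1% for library 2-only and 31.7% for shared peaks, and the AM signature is highest on both scales at 77.5% and 100%.

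Of the 30 genes named whatever their values, 26 had a library 2-only peak, 94 peaks in all, and all 30 had a shared and a library 1 peak. The share with a library 2-only peak was 14.1% over all protein-coding genes and 34.3% over genes with a shared peak. These 30 genes were chosen with earlier results of these data known, so their count is a description. Fabp4, Angptl4, Pdk4 and Csf2ra had none. Among lineage and partner factors, Spi1 (PU.1) had 1 member (4.24, in an intron 3.03 kb downstream), Cebpa 3 (strongest 5.91, 10.8 kb upstream) and Cebpb 3 (5.07, 60.3 kb downstream). Rxra had 1 (3.65, 58.2 kb downstream), Bhlhe40 6 (5.63, 123 kb upstream) and Bhlhe41 1 (3.23, 28.9 kb upstream). Klf6 had 8 (5.07, 16.4 kb downstream) and Zeb2 3 (5.35, 1248 kb upstream). For Cebpb, Bhlhe40 and Zeb2, and for Abca1 and Csf2rb below, the TSS nearest to the strongest peak belonged to another annotated gene. Among lipid genes, Lpl had 3 (4.52, the strongest in the 3′ UTR), Cidec 1 (5.05), Abca1 2 (4.52, 65.5 kb upstream) and Abcg1 2 (5.16, 9 bp from library 1). Among surface markers of AMs, Siglecf had 1 (4.79, 90 bp from library 1), Itgax 2 (4.52), Car4 2 (5.07) and Marco 1 (4.52). Receptors and adhesion genes followed, with Csf2rb 2 (5.70), Tgfbr2 4 (4.79, 92.9 kb downstream), Tlr2 3 (5.35) and Cd9 3 (4.79, 43.1 kb downstream). At each of these 26 genes shared peaks outnumbered library 2-only ones.

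A few genes had no peak other than library 2-only ones. The strongest were at Psmf1, 1700028P14Rik (6.47, 6.11 kb upstream, 97.0 kb from library 1), Slc30a4, a zinc transporter (6.47, in a 3′ UTR, 49.1 kb from library 1), and Slc35a4 (6.35, in a promoter, 299 bp from library 1), followed by Plcxd2 with 2 peaks. They were picked after their values were seen.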

How the data were processed

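PPARγ HT-ChIPmentation was analysed as 2 ChIP libraries of 1 group (replicates 1 and 2 in the labels). Input libraries have no processed file here and are not analysed. The submitters’ processing notes name bcl2fastq 2.20.0.422, cutadapt, SAMtools, Bowtie2, CASAVA and MACS3, and the mm10 build. The authors removed duplicate and poorly mapped reads and called peaks in each library against input at a q of 0.05. For every peak the deposited lists give a score, a fold enrichment (ratio over input), p and q values as −log10, and the summit. They hold no read counts, so depth was not used.

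Gaps, features (curated RefSeq transcripts of GRCm38), nearest protein-coding genes and sequences were computed with Python 3.11.15 scripts. Shares of library 2-only and shared peaks were compared by the Cochran-Mantel-Haenszel chi-square test over 10 deciles of fold enrichment (statsmodels 0.14.6), summits with flanks by the exact two-sided McNemar test, both with Benjamini-Hochberg adjustment over 20 motifs. The functions were tested on simulated data. Patterns were searched on both strands. Those not spelled in the results were ETS as CCGGAAGT (overlapping PU.1), IRF as GAAANNGAAA, YY1 as AAGATGGC, CREB as TGACGTCA, the E-box as CACGTG, CTCF by its name with 1 mismatch, RBPJ as GTGGGAA, EGR as GCGTGGGC and HNF1 as GTTAATNATT. DR1 holds the AGGTCA core. All 427 entries of the 15 gene lists matched a symbol.

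Named genes are those of the 20 strongest members, the 10 genes with most members (ties by name), up to 4 leading genes per list, 30 listed genes, and the 5 strongest members with a DR1 or PU.1 match. Sequences printed for the last group are those with the match within 50 bp of the summit. The members, lists and rules were chosen with earlier results of these data known. Some items that these rules select are not reported here.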

Additional observations from a re-analysis of the deposited data

How the results depend on the processing

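The promoter, distal and repeat shares kept their direction and passed the test under every alternative run: other strata, a q under 0.001, a fold enrichment of at least 5, the 1 kb and summit rules for a shared peak, other definitions of each feature, and, chosen after seeing the data, without soft-masked or low-complexity summits. Leaving out either library gives no value, since the rule needs both. No paired analysis was possible because the inputs that share replicate numbers with the ChIP libraries have no processed file here. The number of library 2-only peaks depended on the rule: 1606 when a library 1 peak within 1 kb counted as shared, 8201 when the library 2 summit had to lie inside a library 1 peak, 8155 when 50% of the peak had to be covered, and 1207 at a fold enrichment of at least 5. Genes nearest to a member numbered 1313 under the 1 kb rule. The GC difference was −6.47 points at a fold enrichment of at least 5, −8.21 under the 1 kb rule, −3.98 under the summit rule and −3.98 without low-complexity summits. Patterns more frequent at summits than in flanks numbered 3, but 1 at a fold enrichment of at least 5 (homeobox, with DR1 at a ratio of 3 and GATA at 1.28 no longer passing) and 0 without the 10 hexamers, where fewer peaks entered (2 had an unadjusted p under 0.05 by the McNemar test, and DR1, GATA and homeobox had ratios of 4.5, 1.28 and 1.38). Patterns that differed from shared peaks numbered 16, but 10 in each of those settings.

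Single patterns that changed direction are grouped here (windows of 50 or 200 bp to either side of the summit replaced 100 bp). For the single AGGTCA the summit-to-flank ratio was 0.986, but 1.07 within 50 bp and without soft-masked summits, 1.01 with the flank outside every peak, 1.09 without the 10 hexamers. For PU.1 the summit-to-flank ratio was 0.933, but 1.43 at a fold enrichment of at least 5, 2 under the 1 kb rule, 1.15 under the summit rule, 1.09 within 50 bp, 1.02 within 200 bp, 1.2 with the right flank, 1.84 with the flank outside every peak, 1.07 without the 10 hexamers. For ETS the summit-to-flank ratio was 0.429, but 1.25 at a fold enrichment of at least 5. For AP-1 the summit-to-flank ratio was 1.08, but 0.919 at a fold enrichment of at least 5, 0.985 within 200 bp. For RUNX the summit-to-flank ratio was 0.996, but 1.18 at a fold enrichment of at least 5 and under the 1 kb rule, 1.05 under the summit rule, 1.09 within 50 bp, 1.01 within 200 bp, 1.07 with the right flank, 1.04 outside promoters, 1.12 with the flank outside every peak, 1.03 without the 10 hexamers. For IRF the summit-to-flank ratio was 0.885, but 1.11 without the 10 hexamers. For E-box the summit-to-flank ratio was 0.866, but 1.07 without the 10 hexamers. For STAT the summit-to-flank ratio was 1.23, but 0.909 under the 1 kb rule. For CTCF the summit-to-flank ratio was 0.706, but 3 under the 1 kb rule, 1.67 within 50 bp, 1.5 without the 10 hexamers. For HNF1 the summit-to-flank ratio was 1.22, but 0.667 within 50 bp, 0.333 without the 10 hexamers. For the single AGGTCA the odds ratio against shared peaks was 0.812, but 1.02 without the 10 hexamers. For IRF the odds ratio against shared peaks was 0.953, but 1.03 without soft-masked summits, 1.31 without the 10 hexamers. For STAT the odds ratio against shared peaks was 0.935, but 1.06 at a fold enrichment of at least 5, 1.41 without the 10 hexamers. For HNF1 the odds ratio against shared peaks was 1.04, but 0.938 without strata, 0.913 under the summit rule, 0.812 within 50 bp, 0.859 outside promoters. The PU.1 ratio with the flank outside every peak is the one of these alternatives that passed the test. Depth at single sites is not analysed here, so a missing call in library 1 cannot be told apart from a site that was too thinly covered there.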
